A study of Homo sapiens with 6 samples.

Results

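The genes described here are GABRP, GABRE, GABRA3 and GABBR1, 4 receptor genes for the neurotransmitter GABA among the 56478 gene symbols of the count table. They were taken by symbol, and they were proposed with earlier results of the same comparison known, in which GABRP was among the most lowered well expressed genes. Their levels and fold changes are therefore given as a description, with a standard error (SE) and without a p-value. RNA was sequenced from BT20, a human breast cancer cell line without hormone receptor or HER2 expression (triple negative), grown with serum and with no further treatment. The shCK5-22 group (n = 3) carried a hairpin against KRT5, which encodes cytokeratin 5, a filament protein of basal epithelial cells, in a pLK0 vector. The shControl group (n = 3) carried the control hairpin in the same vector type. Each arm has 1 hairpin, and the labels do not say whether cells were pooled or cloned after the vector was introduced.

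GABA-A receptors are ligand-gated chloride channels built of several subunits around a pore, and GABA-B receptors are G protein-coupled receptors made of GABBR1 and GABBR2. In neurons GABA-A receptors usually combine alpha and beta subunits with a gamma or delta subunit. The pi subunit, encoded by GABRP, is mainly found outside the brain, in epithelia such as breast and uterus, and its transcript is used as a marker of basal-like breast cancer. GABRE encodes the epsilon subunit, GABRA3 an alpha subunit that takes part in GABA and benzodiazepine binding, and GABBR1 the subunit of the GABA-B receptor that binds GABA.

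Libraries held between 47622067 and 65429616 counts. KRT5 itself stood at 22.6 ± 1.52 CPM (the count scaled by the size and composition of its library) in shCK5-22 and at 241 ± 8.58 CPM in shControl (SD, n = 3 each). Of the libraries, shCK5-22 replicate 1 differed most from its group, with a chi-square per degree of freedom of 19.8 and 33.7 against the other shCK5-22 libraries, where all other pairs lay between 3.46 and 5.08. The epithelial markers EPCAM, CDH1, KRT7, KRT8, KRT18 and KRT19 summed to between 8683 and 9333 CPM in shCK5-22 and between 9807 and 10322 CPM in shControl. Of these KRT19, KRT7 and CDH1 were lower in shCK5-22, by log2 fold changes of -0.63, -0.37 and -0.37 (adjusted p = 5.45e-08, 3.61e-09 and 1.48e-09, edgeR's quasi-likelihood test over all genes), and EPCAM, KRT8 and KRT18 did not pass the test. Because GABA receptors are best known from neurons, 8 neuronal markers were read too: they summed to 4.30 to 4.94 CPM in shCK5-22 and 4.42 to 4.64 CPM in shControl, and SNAP25, NEFL and NEFM were at 0 in every library. Leukocyte markers summed to 2.65 to 3.51 CPM in shCK5-22 and 1.36 to 1.94 CPM in shControl, and fibroblast and endothelial markers to 19.96 to 32.4 CPM in shCK5-22 and 23.3 to 31.1 CPM in shControl. Most of the latter sum was CDH5, at 22.2 ± 5.23 CPM in shCK5-22 and 21.2 ± 2.30 CPM in shControl. Among the leukocyte, fibroblast and endothelial markers LAPTM5, PDGFRB and LUM were higher in shCK5-22, by log2 fold changes of 1.67, 4.22 and 1.85. LUM had only 26, 16 and 24 counts in shCK5-22 and 4, 4 and 10 in shControl (adjusted p = 0.00745, same test). PECAM1 was lower, at -1.20, with an adjusted p of 0.0429 by the same test, close to the threshold. The calls of these markers were not recomputed in the alternatives. PDGFRB had 80, 46 and 66 counts in shCK5-22 and 0, 6 and 4 in shControl (adjusted p = 5.81e-07, same test). The part of all these markers in the results was not tested.

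No promoter window was available for GABRA3. The 3 available promoters, those of GABRP, GABRE and GABBR1, are shown. They are RefSeq windows on GRCh38.p14, from 250 bases before to 50 after the annotated start, on the strand of the gene. The start is that of RefSeq, while the gene coordinates given further on are the outermost ends in the GENCODE annotation, so that the GABRP and GABBR1 windows lie inside those bounds. Capitals mark matches to the motifs named after the sequences.
GABRP, chr5:170783475-170783774, plus strand: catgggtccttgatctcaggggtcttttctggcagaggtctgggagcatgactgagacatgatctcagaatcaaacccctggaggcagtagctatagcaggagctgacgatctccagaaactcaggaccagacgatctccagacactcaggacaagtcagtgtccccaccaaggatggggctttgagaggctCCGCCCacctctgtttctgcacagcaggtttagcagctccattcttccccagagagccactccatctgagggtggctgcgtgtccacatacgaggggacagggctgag
GABRE, chrX:151974627-151974926, minus strand: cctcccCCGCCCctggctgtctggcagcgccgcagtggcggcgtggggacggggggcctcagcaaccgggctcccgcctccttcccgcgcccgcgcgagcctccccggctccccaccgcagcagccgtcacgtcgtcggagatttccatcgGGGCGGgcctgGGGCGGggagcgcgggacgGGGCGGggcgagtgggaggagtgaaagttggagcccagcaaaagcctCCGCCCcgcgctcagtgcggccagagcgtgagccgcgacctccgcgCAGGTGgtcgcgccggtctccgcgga
GABBR1, chr6:29627964-29628263, minus strand: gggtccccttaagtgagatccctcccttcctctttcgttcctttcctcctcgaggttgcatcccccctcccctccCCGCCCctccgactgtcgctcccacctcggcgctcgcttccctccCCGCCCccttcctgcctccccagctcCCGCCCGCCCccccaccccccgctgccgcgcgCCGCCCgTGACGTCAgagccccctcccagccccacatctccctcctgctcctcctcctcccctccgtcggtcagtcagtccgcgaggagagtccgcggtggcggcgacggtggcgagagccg

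The motifs searched, on both strands, were the GC box GGGCGG, the E-box CAGGTG, the AP-1 motif TGANTCA, the cyclic AMP response element TGACGTCA and TATAAA. The GC box matched once in the GABRP window and 5 times each in those of GABRE and GABBR1, a pair of the GABBR1 matches overlapping, and 45% of all 35114 promoter windows hold it. The E-box, a sequence bound by ZEB and Snail repressors, matched once, in GABRE, against 20.6% of all windows. The cyclic AMP response element matched once, in GABBR1, against 1.85% of all windows. The AP-1 and TATAAA motifs had 0 matches here, and 7.71% and 11.5% of all windows hold them. The windows also differed in base composition: GABRP had 5 CG dinucleotides and 56% G and C, GABRE had 41 and 76.7%, and GABBR1 had 29 and 72.7%, where the median window had 14 and 58.7%. A match is only a run of letters, and binding was not measured.

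All 4 genes passed the filter on low counts, and the lowest counts of any of them were those of GABRP in shCK5-22. GABRP, GABRE and GABBR1 had lower levels in every shCK5-22 library than in any shControl library, and GABRA3 overlapped between the groups. Over all 18008 genes tested, 22.3% were likewise below shControl with no overlap. The median log2 fold change of the 4 genes was -0.72, with values from -2.82 to 0.18, beside -0.01 over all genes tested. Since these genes were chosen with this contrast known, nothing is read from either comparison. In bulk libraries fewer cells with a transcript and less of it per cell cannot be told apart.

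**Figure D1:**
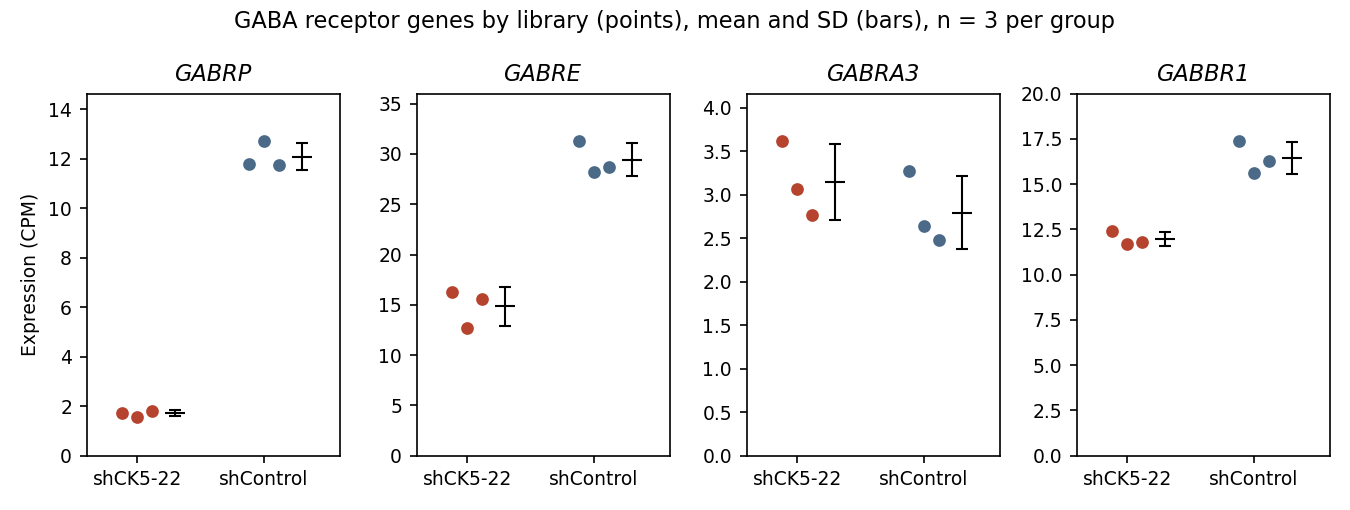
Levels of the 4 receptor genes in CPM (vertical axis, from 0, one scale per gene) in the 3 shCK5-22 and 3 shControl libraries, with points for libraries and bars for the mean and SD. GABRP lies between 1.57 and 1.82 CPM in shCK5-22 and between 11.7 and 12.7 CPM in shControl, and only GABRA3 overlaps between the groups.

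GABRP (ENSG00000094755.16, chromosome 5, 170763350 to 170814047, plus strand, GRCh38) had 113, 94 and 96 counts in shCK5-22 replicates 1, 2 and 3, and 566, 830 and 741 counts in shControl replicates 1, 2 and 3. In CPM these were 1.73, 1.57 and 1.82 in shCK5-22 and 11.8, 12.7 and 11.7 in shControl. The libraries of each group lay close together, and the lowest shControl library stood far above the highest shCK5-22 library. The mean was 1.71 ± 0.124 CPM in shCK5-22 and 12.1 ± 0.556 CPM in shControl, lower by 7.08-fold (log2 fold change -2.82, SE 0.107). It ranked 9 among the 18008 genes tested, counted from the most lowered, and 5 among the 13517 with a mean of at least 1 CPM. As GABRP was chosen with this contrast known, the rank is a description only. Without shCK5-22 replicate 1 the log2 fold change was -2.84. An antisense gene, AC008514.1, overlaps exons of GABRP on the other strand and was not in the count table. Strand use is not given for these counts, so reads of the pair cannot be told apart.

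GABRE (ENSG00000102287.18, chromosome X, 151953124 to 151974680, minus strand) was the most abundant of the 4. It had 1063, 757 and 822 counts in shCK5-22 and 1505, 1842 and 1812 counts in shControl. The levels were 16.3, 12.7 and 15.6 CPM in shCK5-22 and 31.3, 28.2 and 28.7 CPM in shControl, with shCK5-22 replicate 2 the lowest library. The mean was 14.8 ± 1.92 CPM in shCK5-22 and 29.4 ± 1.65 CPM in shControl, 1.98-fold lower (log2 fold change -0.99, SE 0.0787). It was -1.06 without shCK5-22 replicate 1 and -0.88 without shCK5-22 replicate 2. The precursors of miR-224 and miR-452 lie within GABRE on the same strand, and both were listed at 0 in every library.

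GABBR1 (ENSG00000204681.10, chromosome 6, 29555629 to 29633976, minus strand) had 810, 698 and 624 counts in shCK5-22 and 836, 1018 and 1028 counts in shControl. Its levels were 12.4, 11.7 and 11.8 CPM in shCK5-22 and 17.4, 15.6 and 16.3 CPM in shControl. The gap between the groups was wider than the range within either of them. The mean was 11.97 ± 0.396 CPM in shCK5-22 and 16.4 ± 0.901 CPM in shControl, 1.37-fold lower (log2 fold change -0.45, SE 0.0697). UBD and OR2I1P overlap exons of GABBR1 in the annotation, and they had 0 counts and 0 to 4 counts in a library.

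GABRA3 (ENSG00000011677.12, chromosome X, 152166234 to 152451358, minus strand) had 236, 183 and 146 counts in shCK5-22 and 157, 172 and 156 counts in shControl. Its levels were 3.62, 3.06 and 2.76 CPM in shCK5-22 and 3.27, 2.64 and 2.47 CPM in shControl, with the groups interleaved. The mean was 3.15 ± 0.434 CPM in shCK5-22 and 2.79 ± 0.419 CPM in shControl (log2 fold change 0.18, SE 0.152). The difference was smaller than the SD of either group, and it was 0.07 without shCK5-22 replicate 1 and 0.30 without shControl replicate 1.

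To compare subunits with one another, CPM were divided by the length of all annotated exons in kb. By this measure the summed level of the 19 GABA-A subunit genes was 3.88, 3.25 and 3.52 CPM per kb in shCK5-22 and 7.60, 7.12 and 7.23 CPM per kb in shControl. GABRP made up 10.4 ± 0.754% of that sum in shCK5-22 and 35.8 ± 2.64% in shControl (SD, n = 3 each). GABRE made up 43.4 ± 2.72% and 41.8 ± 0.894%, with ranges that overlapped. GABRA3, whose own level overlapped between the groups, made up 21.1 ± 2.10% in shCK5-22 and 9.08 ± 1.07% in shControl.

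The order of the subunits differed between the groups. GABRP and GABRE were chosen with their lower levels known, so this order and the shares above are a description only. In shCK5-22 it was GABRE at 1.54 ± 0.200, GABRA3 at 0.751 ± 0.104, GABRR2 at 0.499 ± 0.0824 and GABRP at 0.369 ± 0.0268 CPM per kb, and none of these neighbours overlapped in range. In shControl it was GABRE at 3.06 ± 0.172, GABRP at 2.62 ± 0.120, GABRA3 at 0.666 ± 0.0999 and GABRR2 at 0.588 ± 0.158 CPM per kb, where the ranges of GABRA3 and GABRR2 overlapped. GABRR2 encodes a rho subunit, known from the retina. Per kb, GABRE was 3.87 to 4.52 times GABRP in shCK5-22 libraries and 1.07 to 1.28 times GABRP in shControl libraries.

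**Figure D2:**
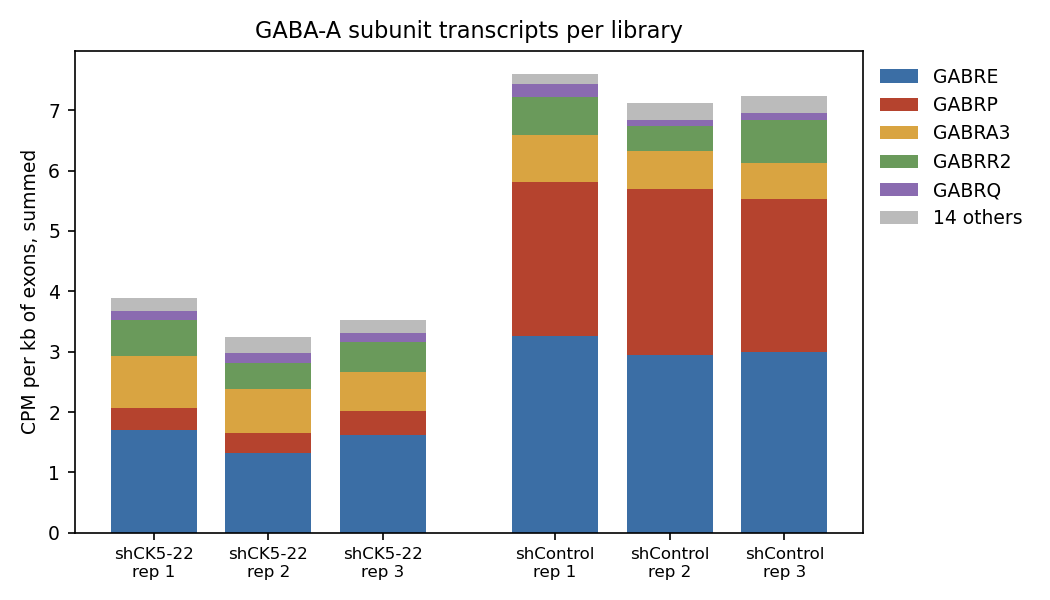
Levels of the 19 GABA-A subunit genes, in CPM per kb of exons and stacked from 0, in each of the 3 shCK5-22 and 3 shControl libraries. The bars reach 3.25 to 3.88 in shCK5-22 and 7.12 to 7.60 in shControl, and the GABRP segment is the one that differs most in share.

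The other GABA-A subunit genes were scarce. Of the 16 besides GABRP, GABRE and GABRA3, 5 had fewer than 10 counts over the 6 libraries together, 2 of them 0, and 6 passed the filter. Of those 6, 0 were called at an adjusted p under 0.05, by edgeR's quasi-likelihood test over all genes. The count was also 0 at an unadjusted p under 0.05, and 0 by limma-voom. It was 0 by DESeq2 too, which gave no adjusted p for GABRR1. GABRB1, a beta subunit, had 2 to 4 counts per shCK5-22 library and 4 to 14 per shControl library and was not tested.

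GABRR2 averaged 1.11 ± 0.184 CPM in shCK5-22 and 1.31 ± 0.352 CPM in shControl, and GABRQ, the theta subunit, 0.961 ± 0.0392 and 0.860 ± 0.355 CPM. GABRG1, a gamma subunit, averaged 0.256 CPM in shCK5-22 and 0.164 CPM in shControl, and GABRR1, another rho subunit, 0.172 and 0.217 CPM. None of these passed the test. At these levels small differences were not detectable: the SE of the log2 fold change lay between 0.234 for GABRR2 and 0.574 for GABRR1. GABRA2, GABRA6, GABRG3 and GABRD had 12 to 39 counts over all 6 libraries and were not tested.

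GABBR2, the partner that GABBR1 needs to reach the cell surface and signal, was not called: it averaged 7.501 ± 0.255 CPM in shCK5-22 and 7.67 ± 0.823 CPM in shControl (log2 fold change -0.03, SE 0.0956, adjusted p = 0.834). KCTD12, an auxiliary subunit of GABA-B receptors, averaged 8.01 ± 0.786 and 8.13 ± 0.319 CPM (adjusted p = 0.917). KCTD8 and KCTD16, its relatives, had 4 to 12 counts per library and were not tested.

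Besides GABRP, GABRE, GABRA3 and GABBR1, 65 genes of GABA receptors, synthesis, transport, receptor trafficking and the related glycine receptors were read from lists. They include the other GABA-A and GABA-B receptor genes described above. Of the 44 that passed the filter, 9 were higher and 9 lower in shCK5-22, while 17.4% of all genes tested were higher and 16.8% lower, 34.2% in either direction. The median log2 fold change was 0.07 for these genes. With all 44 counted, these shares are near those over all genes. The 6 GABA-A and 2 GABA-B receptor genes tested gave 0 of these calls. The lists were written with earlier results of these data known. Nothing is therefore read from how the calls fall among the lists, here or in the paragraphs on each list below.

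Enzymes of GABA synthesis and breakdown were lower in 3 of 4 cases tested and higher in 0, beside 16.8% and 17.4% of all genes tested. ABAT, the transaminase that breaks GABA down in mitochondria, fell to 9.28 ± 0.647 CPM in shCK5-22, against 16.3 ± 1.09 CPM in shControl (log2 fold change -0.81, SE 0.0778, adjusted p = 4.82e-08). ALDH5A1, which acts after ABAT and oxidises succinic semialdehyde, fell to 4.32 ± 0.554 CPM, against 6.89 ± 0.425 CPM (log2 fold change -0.68, SE 0.114, adjusted p = 7.53e-05). GAD1, the glutamate decarboxylase that makes GABA, was 13.9 ± 0.781 CPM in shCK5-22 and 16.1 ± 1.30 CPM in shControl (log2 fold change -0.21, adjusted p = 0.0275). Its call was lost on leaving out shCK5-22 replicate 1 or 3 or shControl replicate 2 or 3, at an adjusted p of 0.0556 to 0.191. Over all alternatives the adjusted p lay between 0.0137 and 0.191. The second decarboxylase gene, GAD2, had 4 counts in all, and ALDH9A1, an aldehyde dehydrogenase that can make GABA from another precursor, averaged 51.7 ± 1.31 and 48.3 ± 2.73 CPM (adjusted p = 0.112).

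Among GABA and chloride transporters 4 of 9 rose and 1 fell, beside 17.4% and 16.8% of all genes tested. SLC12A2, the chloride importer NKCC1, fell to 41.4 ± 3.46 CPM in shCK5-22, against 50.6 ± 2.49 CPM in shControl (log2 fold change -0.29, adjusted p = 0.000433). SLC12A7 and SLC12A4, potassium-chloride exporters, rose by 0.52 and 0.15 in log2 terms, to 43.5 and 68.1 CPM in shCK5-22, against 30.3 and 61.3 CPM in shControl (adjusted p = 1.45e-08 and 0.00458). The neuronal exporter gene SLC12A5 had 11 to 27 counts per library. SLC6A6, the taurine transporter, rose to 204.5 ± 14.8 CPM, against 167.7 ± 8.90 CPM (log2 fold change 0.29, adjusted p = 0.00224). SLC6A12, the betaine and GABA transporter, had 48, 14 and 14 counts in shCK5-22 and 4, 8 and 11 in shControl (adjusted p = 0.0176). Its call rests on shCK5-22 replicate 1, without which the log2 fold change was 0.94 in place of 1.67 and the adjusted p 0.275. It was also lost without shControl replicate 1 or 2 (0.0737 and 0.0591), and the adjusted p ranged from 0.00537 to 0.275 over the alternatives.

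Of the 20 genes of GABA-A receptor assembly, trafficking and anchoring that were tested, 4 rose and 5 fell. The shares over all genes tested were 17.4% and 16.8%. TRAK2, a motor adaptor that binds GABA-A receptors, fell by 0.55 in log2 terms, to 29.7 ± 1.28 CPM in shCK5-22, against 43.6 ± 1.70 CPM in shControl (adjusted p = 1.82e-08). RDX, the radixin that anchors receptors to actin, fell by 0.46. NLGN2, a neuroligin of inhibitory synapses, fell by 0.37, and DBI, whose product binds benzodiazepine sites, by 0.24. GABARAPL1, an autophagy and receptor trafficking protein, rose by 0.34, to 35.5 ± 3.22 CPM, against 28.2 ± 2.94 CPM (adjusted p = 0.00414). GPHN, the gephyrin scaffold of inhibitory synapses, averaged 17.9 ± 0.488 and 16.1 ± 0.447 CPM (adjusted p = 0.0616).

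Glycine receptors, the closest relatives of GABA-A receptors among chloride channels, included 1 call among 3 genes tested, beside 34.2% over all genes. GLRB, the beta subunit, rose by 0.59 in log2 terms, to 5.31 ± 0.107 CPM in shCK5-22, against 3.53 ± 0.646 CPM in shControl (adjusted p = 0.00119). GLRA2 and GLRA1 averaged 2.82 and 1.23 CPM in shCK5-22 and 2.69 and 1.16 CPM in shControl and were not called.

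**Figure D3:**
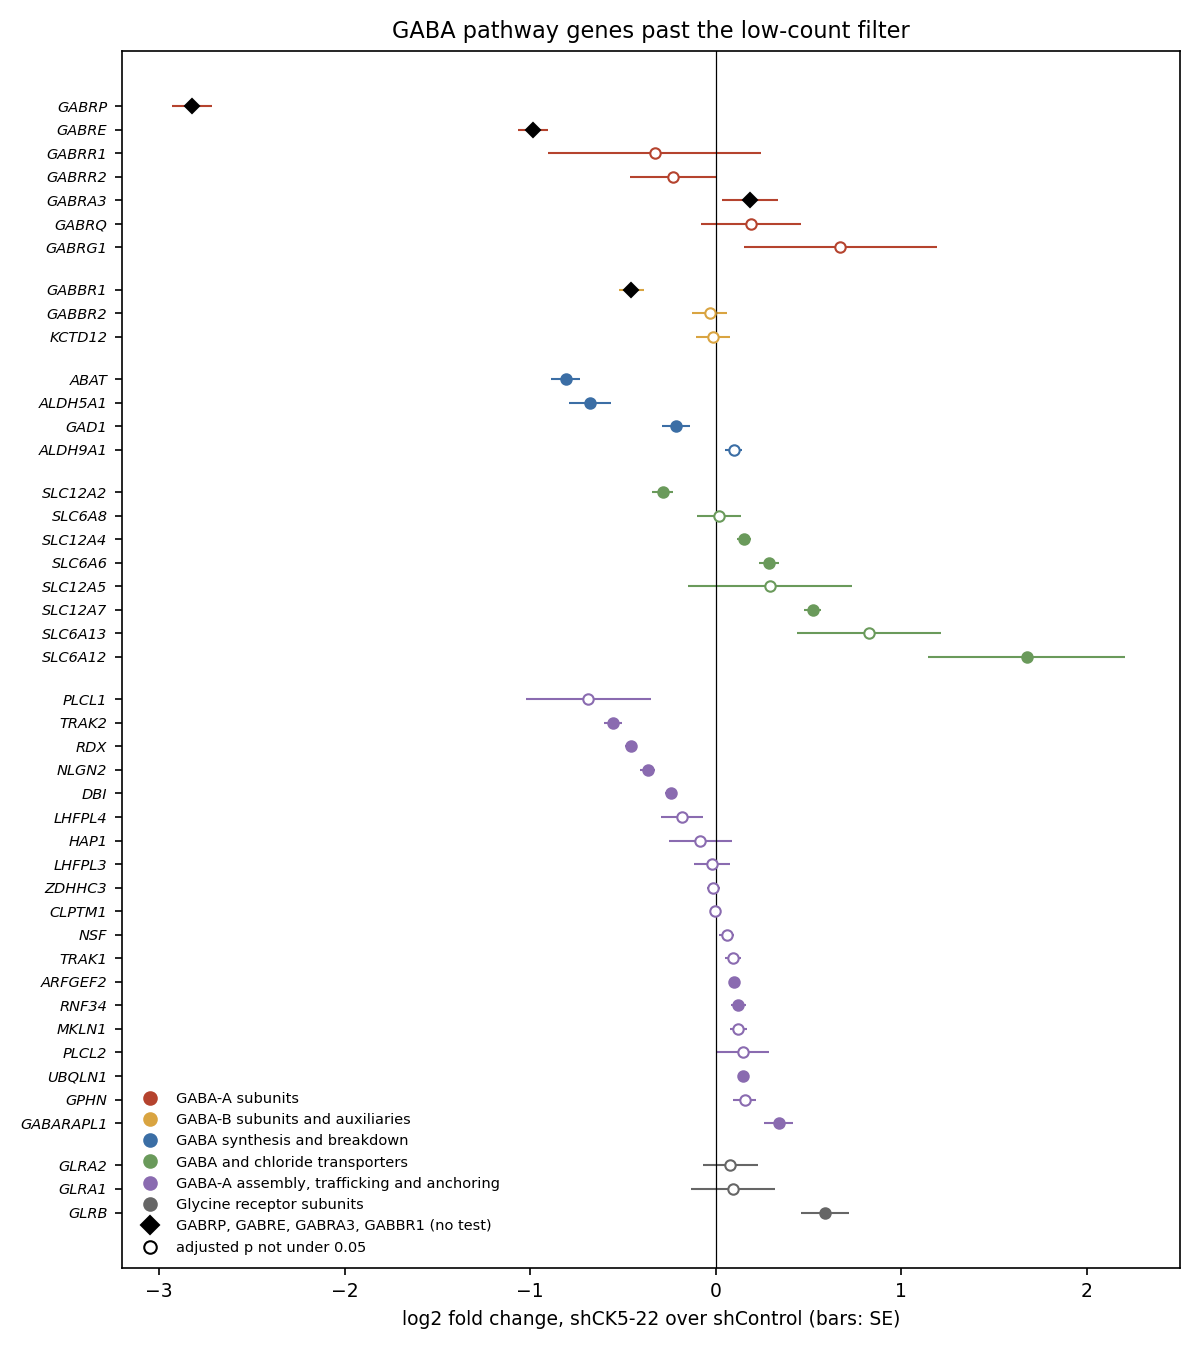
Log2 fold changes of shCK5-22 over shControl with their SE for GABA pathway genes past the low-count filter, grouped by role. Filled circles are genes with an adjusted p under 0.05, open circles the others, and black diamonds GABRP, GABRE, GABRA3 and GABBR1, for which no test is given. GABRP, at -2.82, lies apart on the left, and filled circles lie on both sides of 0.

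GABRP is often grouped with other genes of basal-like tumours and of luminal progenitor cells of the breast, and 20 such genes were read. Of the 12 that passed the filter, 7 fell, 1 rose and 4 were not called, with a median log2 fold change of -0.44. Over all genes tested, 16.8% were lower and 17.4% higher. The list was written with earlier results of these data known, so nothing is read from that comparison. Among those not called, SFRP1 averaged 55.5 ± 9.20 CPM in shCK5-22 and 54.3 ± 8.84 CPM in shControl. KLK5, a kallikrein protease, fell to 271.9 ± 4.47 CPM in shCK5-22, against 422.3 ± 11.3 CPM in shControl (log2 fold change -0.64, adjusted p = 4.16e-13). ALDH1A3, an aldehyde dehydrogenase of progenitor cells, fell by 0.71 in log2 terms, TTYH1, a tweety family membrane protein, by 0.64, and VGLL1, a TEAD cofactor, by 0.50. CDH3, the P-cadherin gene, fell by 0.47 and FOXC1, a transcription factor of basal-like tumours, by 0.46. None of these fell as much as the 2.82 by which GABRP was lower. As GABRP was chosen with its fall known, nothing is read from that difference. UGT8, a galactosyltransferase named here after its value was seen, was the 1 that rose, by 0.32. ELF5 and KIT, markers of luminal progenitors, had 12 and 4 counts over all libraries, and SOX10, MIA and KRT23 had 0.

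By location the 4 genes lie on 3 chromosomes. GABRE and GABRA3 both lie on the X chromosome, within 250 kb of each other, with GABRQ beyond GABRA3. Within 250 kb of GABRP only RANBP17 was tested, and it averaged 15.0 and 16.1 CPM in shCK5-22 and shControl (log2 fold change -0.11, adjusted p = 0.23). Apart from GABRA3, no gene within 250 kb of GABRE passed the filter. Of 3 such genes near GABRA3 other than GABRE, MAGEA3 fell by 0.25 in log2 terms (adjusted p = 5e-05), a cancer-testis gene with near-identical copies and so an uncertain count. Of 7 near GABBR1, in the extended MHC region, HLA-F-AS1 fell by 0.55 (adjusted p = 0.0137). This call is uncertain, since the gene overlaps HLA-F on the other strand, and it was lost without shCK5-22 replicate 2 (0.0661) and without shControl replicate 1 (0.0580). Its lowest adjusted p among the alternatives was 0.00547.

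The genes most like each of the 4 were found by the root mean square distance between log2 CPM centred on each gene's mean over the 6 libraries, among 13517 genes with a mean of at least 1 CPM. With 2 groups this distance mostly reflects the difference between them. Nearest to GABRP were CASP14 at 0.0577, TMPRSS4 at 0.153, LINC01133 at 0.311, KRT5 at 0.315 and KRT6A at 0.365. CASP14, a caspase of cornified epidermis, averaged 5.19 ± 0.302 CPM in shCK5-22 and 37.8 ± 0.110 CPM in shControl. TMPRSS4, a membrane serine protease, averaged 1.31 ± 0.126 and 8.02 ± 0.512 CPM, and LINC01133, a long noncoding RNA, 0.210 ± 0.0882 and 1.99 ± 0.195 CPM. KRT5 is the target of the hairpin, and KRT6A, another basal keratin, shares stretches of sequence with it, so that its count is uncertain. The fifth nearest gene was thus at 0.365 from GABRP, and at 0.0771 from GABRE and 0.0241 from GABBR1. GABRP was chosen with its fall known, and it ranked 5 of these 13517 genes from the most lowered. Nothing is therefore read from its larger distances or from which genes lie near it.

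Nearest to GABRE were SLC28A1, a nucleoside transporter, at 0.0312, NR2F1, an orphan nuclear receptor, at 0.0326, FADS2, a fatty acid desaturase, at 0.0542, NAALADL2 at 0.0691 and AC099342.1 at 0.0771. NR2F1 averaged 19.3 ± 2.17 CPM in shCK5-22 and 39.2 ± 1.78 CPM in shControl. Nearest to GABBR1 were USP30, a mitochondrial deubiquitinase, at 0.0145, THEM6, ERMP1, GSTT2B, which has a near-identical copy, and ATP10D, a lipid flippase, all within 0.0241. Nearest to GABRA3 were TMEM55A at 0.0433, E2F5, LRAT, PDCD2L and CNIH3, the last at 0.0770.

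**Figure D4:**
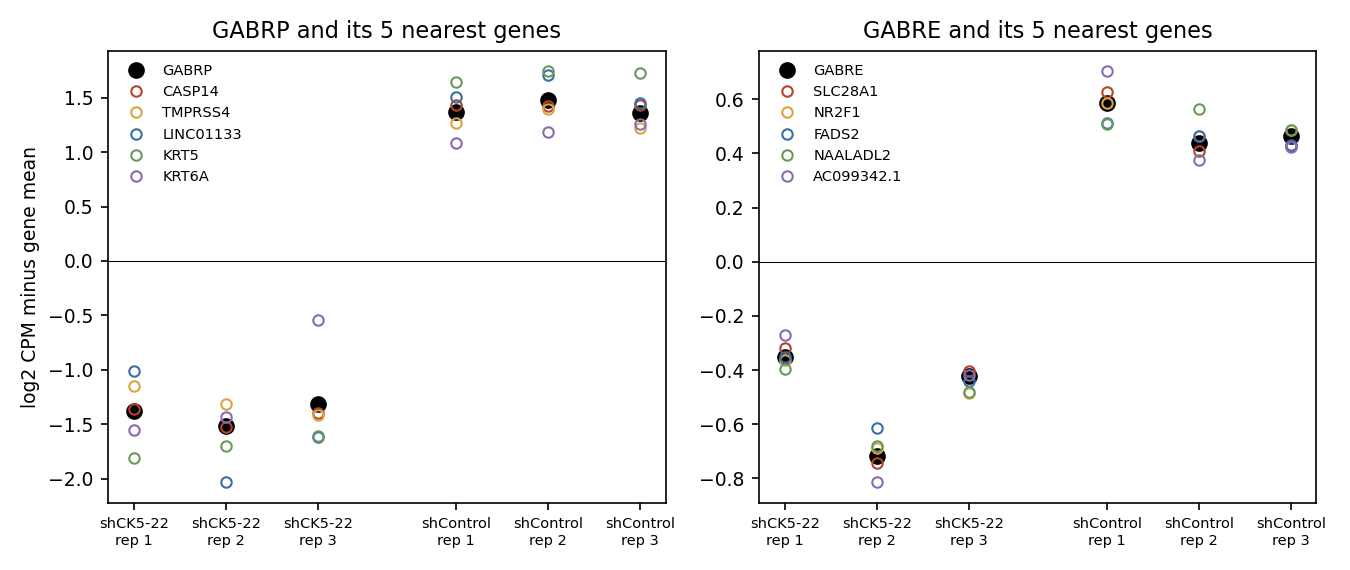
Log2 CPM minus the mean of each gene over the 6 libraries, for GABRP with its 5 nearest genes and for GABRE with its 5 nearest genes (filled points are GABRP and GABRE, open points the neighbours). CASP14 lies closest to GABRP in both groups, KRT5 lies lower in shCK5-22 and higher in shControl, and the neighbours of GABRE share its low value in shCK5-22 replicate 2.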

How the data were processed

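Libraries were made from DNase-treated total RNA by Illumina protocols, per the labels' protocols. The authors deposited 1 table of whole-number read counts per gene symbol. Per the submitters' processing notes, cutadapt, STAR, SAMtools and Cufflinks were used with build GRCh38. Not given in the sources used here are the counting tool, annotation, strand use and handling of multi-mapped reads. Between 86.7% and 89.1% of counts from 1 to 20 in a library were even, as when both reads of a pair are counted, so such counts hold less information than their number.

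Of 56505 rows, 27 with a calendar date in place of a symbol (0.167% to 0.175% of a library's counts) were left out. Groups and replicate numbers come from the sample titles. Separate cultures are not stated for the replicates, and p-values therefore cover the spread between libraries, which may be technical. The comparison was fitted with edgeR 4.0.16 (R 4.3.3): quasi-likelihood test, robust estimation, TMM, filterByExpr, Benjamini-Hochberg over all 18008 genes tested, threshold 0.05, two-sided. SEs were derived from the fold change and F statistic. The fit was also run on simulated data with far fewer changed genes than were called here, so that run does not test it under these conditions. Coordinates and exon lengths are from GENCODE release 29. CPM use TMM-scaled library sizes, and a count of 3, taken as the floor, is 0.0459 to 0.063 CPM before that scaling, for counting error only. Alternatives were other normalizations and filters, DESeq2 1.42.0, limma-voom (limma 3.58.1), a threshold of 0.01, a replicate block and leaving out each library.

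Named genes are KRT5, the 4 receptor genes, receptor subunits with at least 10 counts in all, the called genes of each list (at most 6, by size), called genes within 250 kb and the 5 nearest genes; others are further examples chosen after their values were seen. Some genes are not reported here. The 4 genes and the lists were chosen with earlier results of these data known. In all 0 columns of other samples were present.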

Additional observations from a re-analysis of the deposited data

How the results depend on the processing

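The log2 fold changes of GABRP, GABRE and GABBR1 were -2.87 to -2.77, -1.06 to -0.88 and -0.49 to -0.42 over the alternatives. That of GABRA3 lay between 0.07 and 0.30. GABRP, GABRE and GABBR1 were chosen with this contrast known, and their groups did not overlap. The alternatives could thus hardly turn their direction, and nothing is read from its being kept. With exon lengths replaced by the longest transcript, GABRP made up 9.74% of the GABA-A subunit level in shCK5-22 and 33.2% in shControl. Counts of called GABA pathway genes stayed between 6 and 10 higher and 8 and 10 lower. With the replicate block they were 10 and 9, and over all genes 3456 and 3287, against 3134 and 3019 without it. Same-numbered libraries correlated in their deviations by 0.10, 0.19 and -0.04 for numbers 1, 2 and 3. Libraries with different numbers correlated by -0.19 to 0.09. With 3 libraries per group these values cannot settle whether the numbers pair the samples. Of 924 recomputed values for 67 single genes, 15 lost a call (GAD1, SLC6A12, ARFGEF2, RNF34 and HLA-F-AS1) and 7 gained one (ALDH9A1 and MKLN1). The cause was not tested. In 0 of them did the direction change with a call in either fit. Some uncalled genes did change sign, such as GABRR1, from -0.33 to 0.14 without shControl replicate 2. The call of ARFGEF2 was lost with library size only and without shControl replicate 2. Depth limits what can be said of the scarce GABA-A subunits.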

Other observations

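A pair of GABA-A receptor-associated trafficking genes that most cells express were almost without counts. GABARAP had 4 counts and GABARAPL2 had 0 over all 6 libraries, while their relative GABARAPL1 had 11231. In GENCODE release 29 exons of GABARAP overlap those of a protein-coding gene on the same strand, AC120057.2, whereas no annotated exon overlaps those of GABARAPL2. With the counting tool not given, both genes are reported only as listed at or near 0.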
